A study of Mus musculus with 2 samples.

Results

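Heterogeneous nuclear ribonucleoproteins (hnRNPs) are RNA-binding proteins that coat transcripts as they are made and influence their splicing, stability and transport. They bind through RRM, KH or other RNA-binding domains, and each family member prefers its own short sequence. Many hnRNP genes are themselves alternatively spliced, and several are known to limit their own protein by making transcripts that are degraded by nonsense-mediated decay, a pathway that removes messages with an intron well past the stop codon. The 10 genes described here were taken by name from the deposited tables: Hnrnpa1, Hnrnpa2b1, Hnrnpab, Hnrnpc, Hnrnpd, Hnrnpdl, Hnrnph1, Hnrnpk, Hnrnpl and Hnrnpu. They are 10 of 18366 annotated genes with a read, and all 10 had reads in both libraries.

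The tissue was left cerebral cortex of male mice aged 14 days from the B6CASTF1/J cross, the first generation of C57BL/6J by CAST/EiJ. There was 1 group with 2 libraries labelled as biological replicates, each a long-read library made from 2 µg of total RNA, with no treatment or mutation in the labels. Both replicates carry 1 donor identifier, and the tissue descriptions mention several males, so each may be a pool. The p-values below set the spread between the libraries against counting error alone, and that spread may come from handling or sequencing. In bulk tissue, fewer cells of a type and less RNA per cell cannot be told apart.

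Replicate 1 held 775048 mouse reads and replicate 2 held 924222. A gene's level is given in CPM, reads per 1000000 mouse reads of the library. Each long read counts once for its gene whatever its length, so CPM is not divided by length. Whether transcripts of different length were read equally well was not tested. The summed markers of cortical excitatory neurons stood at 3528 CPM in replicate 1 and 5066 CPM in replicate 2, and all 6 had reads in both. Markers of myelinating oligodendrocytes stood at 3211 and 2101 CPM, with 5 of 5 read in both. Striatal markers stood at 928 and 223 CPM with 5 of 7 read in both, and choroid plexus markers at 38.7 and 258 CPM with 2 of 4 read in both. No listed marker was at 0 in both replicates, and the part of these differences in the results below was not tested.

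Hnrnpk, Hnrnpu and Hnrnpa2b1 had the most reads of the 10 genes. Hnrnpk (chr13:58391142-58403343, mm10, minus strand) encodes a KH-domain protein that binds C-rich sequence. It had 539 and 593 reads, 695 and 642 CPM, in replicates 1 and 2. Its mean of 669 ± 38.1 CPM (SD, n = 2) had rank 150 of all annotated genes, and both replicates lay above every value of the other 9 genes. Hnrnpu (chr1:178321108-178337797) encodes a nuclear scaffold protein that binds RNA and chromatin. It stood at 475 and 490 CPM, from 368 and 453 reads. Hnrnpa2b1 (chr6:51460932-51469894) encodes the A2 and B1 proteins, which have RRM domains and take part in splicing and in carrying mRNA into cell processes. It stood at 436 and 504 CPM, from 338 and 466 reads, and its range enclosed that of Hnrnpu.

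The genes of the next levels were Hnrnpd, Hnrnpl, Hnrnpa1 and Hnrnpdl. Hnrnpd (chr5:99955935-99978938) encodes AUF1, which binds AU-rich elements of unstable mRNAs, and stood at 232 and 181 CPM in replicates 1 and 2. Hnrnpl (chr7:28808541-28822266) encodes a protein that binds CA repeats and stood at 175 and 182 CPM. Hnrnpa1 (chr15:103240432-103246692), known as a repressor of exon inclusion, stood at 156 and 138 CPM. Hnrnpdl (chr5:100033577-100039664), a paralogue of Hnrnpd, stood at 164 and 120 CPM. The ranges of Hnrnpd and Hnrnpl overlapped, as did those of Hnrnpa1 and Hnrnpdl.

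Hnrnpab, Hnrnpc and Hnrnph1 were the lowest. Hnrnpab (chr11:51600100-51606847), which encodes the CArG box-binding factor A, stood at 90.3 and 115 CPM in replicates 1 and 2. Hnrnpc (chr14:52073377-52104028), whose protein binds uridine tracts, stood at 106 and 97.4 CPM, inside the range of Hnrnpab. Hnrnph1 (chr11:50376990-50386528), whose protein binds runs of G, stood at 73.5 and 51.9 CPM from only 57 and 48 reads. All 10 means exceeded 31.9 CPM, the median over the 11203 genes with at least 10 reads in both libraries together.

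**Figure D1:**
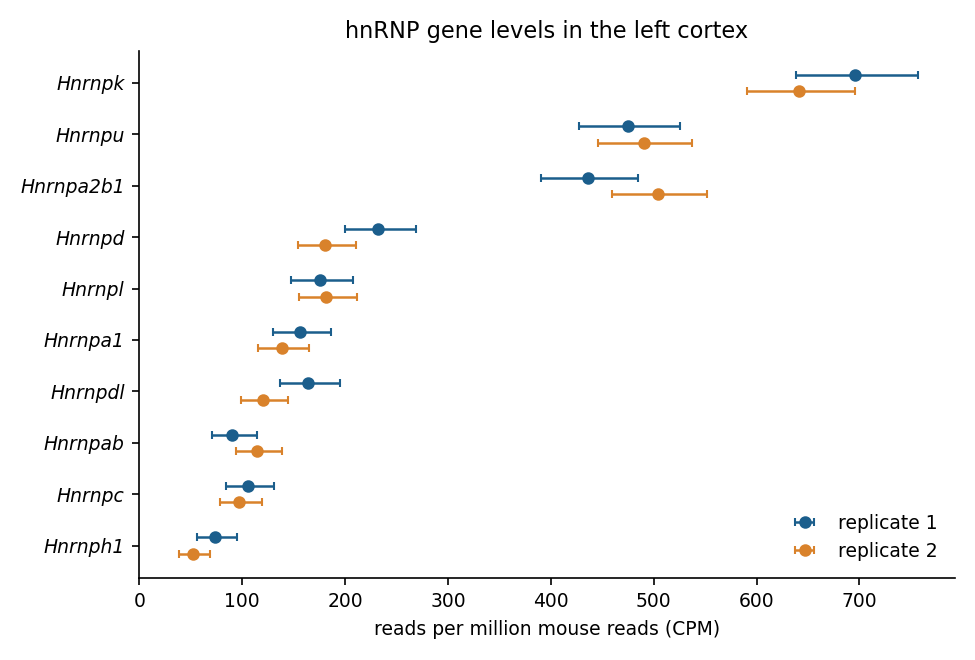
Level of each of the 10 hnRNP genes in CPM on a linear axis from 0, with 1 point per replicate and exact 95% Poisson intervals that cover counting error only. Hnrnpk lies highest at 695 and 642 CPM in replicates 1 and 2, and Hnrnph1 lowest at 73.5 and 51.9 CPM.

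None of the 10 genes differed in level between the replicates past an adjusted p of 0.05 (Fisher's exact test of the gene's reads against all other mouse reads, two-sided, Benjamini-Hochberg adjusted over 11203 genes). The share of all genes called by this test was 2.11%. At an unadjusted p under 0.05 there were 3 of the 10 genes, against 11.2% of all genes tested. These were Hnrnpdl, with a log2 ratio of replicate 1 over replicate 2 of 0.45 (95% interval 0.08 to 0.81, adjusted p = 0.277), Hnrnpd, with 0.36 (0.06 to 0.67, adjusted p = 0.290), and Hnrnpa2b1, with -0.21 (-0.41 to -0.01, adjusted p = 0.424). The ratio was above 0 in 6 genes and below 0 in 4. The median ratio of the 10 was 0.12, beside 0.01 over all genes tested. With TMM or DESeq2 size factors in an exact binomial test, 0 of the 10 were called as well.

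The 21 other hnRNP genes listed for comparison included 20 with enough reads, and 0 were called by Fisher's exact test. Their median log2 ratio was -0.13, and 2 had an unadjusted p under 0.05. The 3 with the highest mean were Hnrnph2 at 241 and 198 CPM in replicates 1 and 2, Pcbp1 at 178 and 199 CPM, and Hnrnpf at 194 and 163 CPM. The smallest adjusted p was that of Hnrnpa0, 0.0945, from 1 and 14 reads. It was named after its value was seen.

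Each deposited transcript model has a class. Known models match an annotated transcript, incomplete splice matches (ISM) hold part of an annotated chain of introns, NIC models join annotated splice sites in a new combination, NNC models use at least 1 unannotated site, and Genomic models overlap the gene without matching its splicing. In 8 of the 10 genes Known was the largest class. Hnrnpa1 and Hnrnpu had the highest Known shares. Of Hnrnpa1 reads, 87.6% were Known in replicate 1 and 88.3% in replicate 2, and of Hnrnpu reads, 83.4% and 87.0%. Hnrnpd, Hnrnpab, Hnrnpl and Hnrnpdl had mean Known shares of 84.2 ± 2.83%, 81.5 ± 5.91%, 76.4 ± 3.05% and 74.4 ± 0.54% (SD, n = 2). The median over 3195 genes with at least 50 reads in each replicate was 81.0%.

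Hnrnpa2b1, Hnrnpc, Hnrnph1 and Hnrnpk stood below these values. Known reads of Hnrnpa2b1 made up 49.1% and 43.8% in replicates 1 and 2, and its ISM reads 39.6% and 41.0%, a mean that 170 of the 3195 genes exceeded. Most of these reads came from the end of the gene: ISM models with only the last 2 exons held 72 and 129 reads, 21.3% and 27.7% of the gene. Models with 1 exon differed in class between the replicates. In replicate 1, 21 reads lay in such ISM models within the last exon, while in replicate 2, 39 reads lay in such Genomic models inside the last exon or reaching past its end.

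Hnrnpc had 70.7% Known reads in replicate 1 (95% Wilson interval 60.1 to 79.5%) and 45.6% in replicate 2 (35.7 to 55.8%), so the intervals did not overlap. Such a gap in the Known share was found in 1.85% of the 3195 genes. The ISM share of Hnrnpc was 6.10% and 22.2%, also without overlap, as in 5.73% of genes, and its NIC share was 23.2% and 30%. Hnrnpc was the only gene of the 9 with at least 50 reads in each replicate to show either gap. Hnrnph1 had 10 of 57 Known reads in replicate 1 and 5 of 48 in replicate 2. Its ISM reads, 26 in each replicate, were mostly of the kind that lacks the start of the transcript, with 23 in each.

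**Figure D2:**
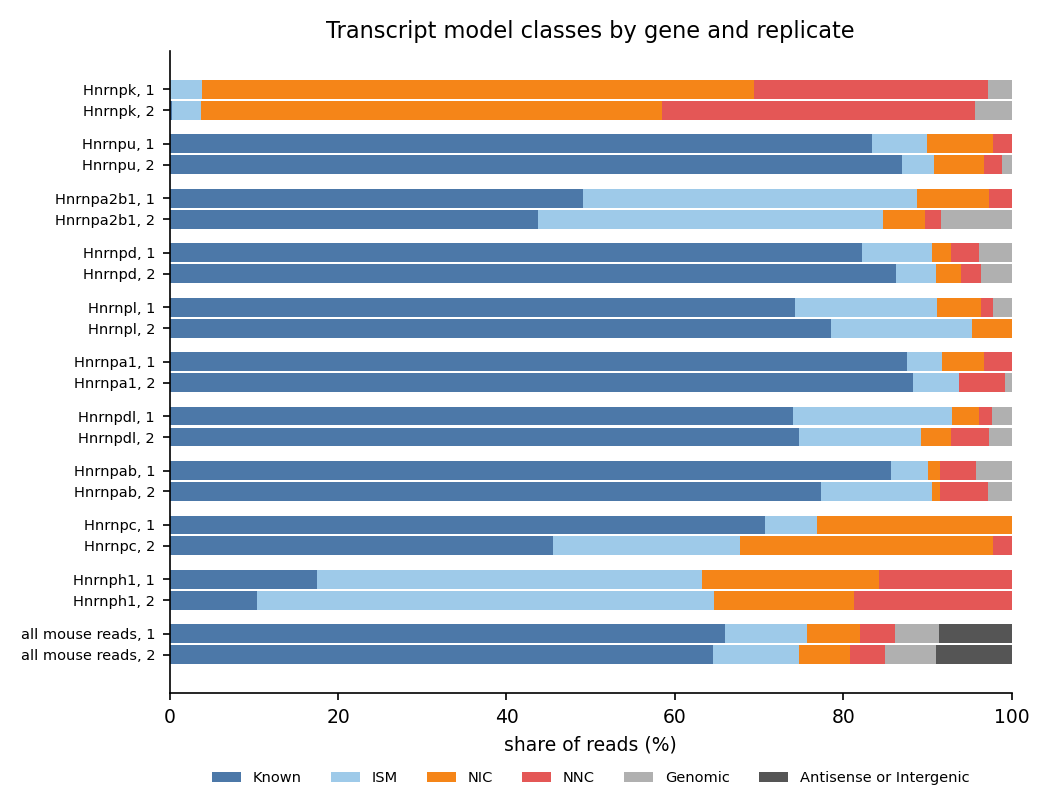
Share of reads in each model class, in percent, with a bar for each gene and replicate (the number after the gene is the replicate) and all mouse reads below. Hnrnpk is almost wholly NIC and NNC, while 87.6% and 88.3% of Hnrnpa1 reads are Known.

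Hnrnpk had almost no Known reads: 0 of 539 in replicate 1 and 2 of 593 in replicate 2. Instead 353 and 325 reads were NIC and 150 and 220 were NNC. The intervals of these shares did not overlap between the replicates, as in 1.60% of the 3195 genes for NIC and 0.970% for NNC, and the 2 leading Hnrnpk chains exchange these labels between the libraries. Of the 3195 genes, 3154 (98.7%) had a higher Known share. The unannotated step lay at a 16-base exon at chr13:58393853-58393868 that is annotated in GENCODE M21. By the exon structure of the models, no read held this exon in either replicate, of 523 and 560 reads that crossed it. A count of 0 allows a share of up to 0.574% in replicate 1 and 0.536% in replicate 2. In 494 and 536 of these reads, 94.5% (92.2 to 96.1%) and 95.7% (93.7 to 97.1%), the exon upstream was longer by exactly 16 bases, ending at an unannotated donor.

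The models of nearly all Hnrnpk reads that cross this step hold the added stretch in place of the annotated exon. Read sequences were not available, so whether the molecules themselves do was not tested. The letters of the annotated exon and of the added stretch are therefore shown from the reference. Both were read from GENCODE M21 transcripts on mm10, minus strand, 5′ to 3′, with the 16 bases in capitals and 7 flanking bases on each side.
Small exon, chr13:58393846-58393875: tttttagGGTGGTTCTGGATATGgtaagtt
Added stretch, chr13:58394053-58394082: accacagGTTGAGTATCAATAATgttaata
The stretches have the same letter at 8 of 16 positions. Each is followed by GT, the usual first letters of an intron.

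Other routes through this step were rare. In 16 and 12 reads the upstream exon was longer by 5 bases, in 13 and 11 reads the small exon was skipped with no extension, and in 0 and 1 read the exon was longer by 35 bases. Of 2847 annotated internal exons of at most 30 bases, taken whether or not reads crossed them, 935 were held by a read. Across the 2847, 7 had reads in both replicates in which a neighbouring exon was longer by the length of the missing one. Only 3 of these had at least 20 such reads: Hnrnpk with 494 and 536, Pitpnb with 101 and 104 at an 8-base exon, and Rwdd4a with 20 and 24 at a 3-base exon. None of the 3 small exons was in the model of any read. The last 2 genes were named after their values were seen, and the cause of the pattern was not tested.

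**Figure D3:**
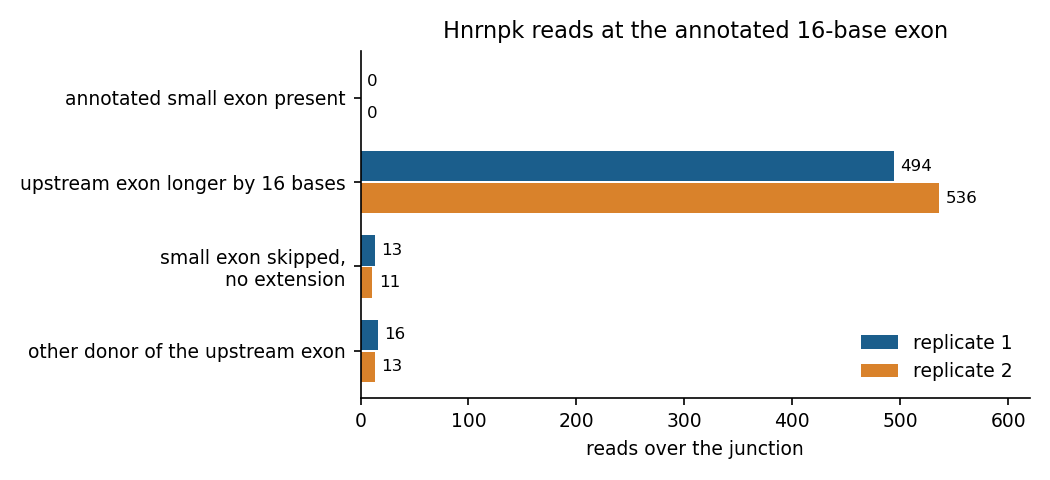
Number of Hnrnpk reads that crossed the annotated 16-base exon, by what their models held there, in replicate 1 and replicate 2. The bars of the extended upstream exon stand at 494 and 536 reads, and the annotated exon at 0 in both.

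The leading Hnrnpk chains all used the extended exon and differed in their first and last exons. The most frequent chain held 158 reads (31.4%) in replicate 1 and 207 (37.8%) in replicate 2, and the next 142 (28.2%) and 138 (25.2%). These share every intron but the last, which ends at acceptors 60 bases apart (chr13:58392417-58392476). The segment was kept in 45.0% (40.8 to 49.3%) and 39.4% (35.4 to 43.4%) of reads, and the annotated stop codon differs between its forms. The next 2 chains, with 65 and 64 reads and with 43 and 41, used a different first exon. The outer first exon held 72.2% and 76.4% of reads and the inner one 27.8% and 23.6%.

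Of 23 unannotated Hnrnpk chains found in both replicates, 2 had a different class in each (8.70%), near the 9.07% over all genes, and 21 had the same class. Both were leading chains: the most frequent was NIC in replicate 1 and NNC in replicate 2, and the next was NNC in replicate 1 and NIC in replicate 2. Of the NIC reads, 342 of 353 and 314 of 325 held a splice site that GENCODE M21 lacks. When the added stretch was read as the small exon, a setting chosen after seeing the data, 367 of 539 and 414 of 593 Hnrnpk reads (68.1% and 69.8%) matched an annotated transcript, and 128 and 120 were still NIC. The most frequent chain then matched Hnrnpk-201 and the next Hnrnpk-224, both protein coding.

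Exons of intermediate use, included in 5 to 95% of informative reads, numbered 11 in 9 of the genes, of 20 tested exons in all. Over the series 1593 of 7530 exons (21.2%) were in this range. The share of reads that hold an exon is called its inclusion, counted for the pair of flanking introns with the most reads. No exon of any gene passed the test between replicates (Fisher's exact test, adjusted over 7530 exons, 0% called), and at an unadjusted p under 0.05 there were 99 exons, 0 of them in these genes. Of the 11 exons, 8 have a length that is a whole number of codons and 3 do not. The Hnrnpdl exon of 105 bases, among the 8, and the Hnrnpc exon of 26 bases, among the 3, lie outside annotated coding sequence. For these the length says nothing about the reading frame. The 95% intervals of the replicates overlapped for all 11, with no such count over all exons to set beside it.

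**Figure D4:**
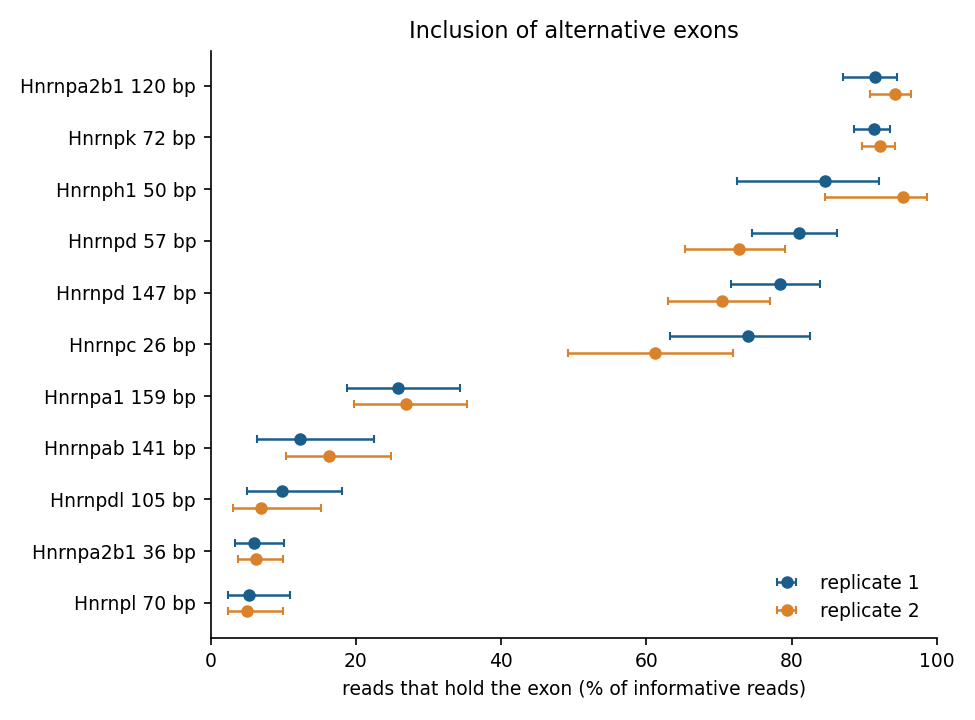
Inclusion of the 11 alternative exons in percent of informative reads, with 1 point per replicate and 95% Wilson intervals. The exons fall into a group above 60% and a group below 30% in both replicates.

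Hnrnpa2b1 has an exon of 36 bases (chr6:51467391-51467426, coding, 12 codons) that makes the B1 protein when included and the A2 protein when skipped. Counted with its most used pair of flanking introns, it was held by 12 of 203 reads in replicate 1 (5.91%) and 15 of 243 in replicate 2 (6.17%). The skipped form thus led in both. The sequence that marks B1 transcripts begins, in GENCODE M21 on mm10, minus strand, with the 30 bases of chr6:51467397-51467426.
Hnrnpa2b1 exon: aaaactttagaaactgttcctttggagagg
Another exon of 120 bases (chr6:51464428-51464547, 40 codons) was included in 91.5% and 94.2% of reads. Reads long enough to show both exons numbered 200 and 242, and none of them held the 36-base exon without the 120-base exon. Both exons were held by 6.5% and 6.2% of these reads, beside 5.92% and 5.79% from the product of their separate shares. The leading isoform, Hnrnpa2b1-204, has the long exon only and held 66.7% and 74.2% of the Known, NIC and NNC reads. Hnrnpa2b1-210, which lacks both, held 5.39% and 5.51%.

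Hnrnpd makes 4 coding transcripts from an exon of 57 bases near its start (chr5:99976534-99976590, 19 codons) and an exon of 147 bases near its end (chr5:99963731-99963877, 49 codons). They encode the known AUF1 proteins. The 57-base exon was included in 81.1% (74.5 to 86.3%) of reads in replicate 1 and 72.8% (65.4 to 79.1%) in replicate 2, and the 147-base exon in 78.4% and 70.4%. Hnrnpd-211, with both, had 102 and 77 reads, 64.6% and 50.3%. Hnrnpd-201, without the 147-base exon, had 21 and 28 reads, and Hnrnpd-203, without the 57-base exon, 21 and 26. Hnrnpd-202, without either, had 4 and 13. Both exons were held by 64.9% and 52.5% of reads that show both, beside 64.1% and 51.6% from the product of the separate shares. Its isoform usage had the lowest p of the genes, 0.045 by a chi-square test, with an adjusted p of 0.838.

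Hnrnpa1 and Hnrnpab each have an exon that the leading transcript skips. The Hnrnpa1 exon of 159 bases (chr15:103242922-103243080, 53 codons), which gives the longer A1B protein, was held by 31 of 120 reads in replicate 1 and 33 of 123 in replicate 2. Its inclusion of 25.8% and 26.8% differed by less than its interval. Hnrnpa1-202, without it, held 68.1% and 64.2% of Known, NIC and NNC reads, and Hnrnpa1-201, with it, 21.6% and 26.7%. The Hnrnpab exon of 141 bases (chr11:51601750-51601890, 47 codons) was held by 8 of 65 and 16 of 98 reads, 12.3% and 16.3%. Hnrnpab-201, which skips it, held 82.8% and 75.3%, and Hnrnpab-203, which holds it, 10.9% and 16.9%.

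Hnrnpc and Hnrnph1 had low leading isoform shares, with means of 20.8 ± 9.18% and 24.0 ± 11.1% (SD, n = 2), which did not differ beyond their spread. The leading Hnrnpc isoform, Hnrnpc-205, held 27.3% of Known, NIC and NNC reads in replicate 1 and 14.3% in replicate 2. Hnrnpc-211 held 20.8% and 17.1%, and Hnrnpc-209, Hnrnpc-207 and 2 NIC chains each held between 5.19% and 10.0%. In replicate 2 Hnrnpc-211 stood above Hnrnpc-205, with 12 against 10 reads. The median leading share was 88.2% over the 2631 genes with at least 50 Known, NIC and NNC reads in each replicate. Hnrnph1, with 31 and 22 such reads, is not among them.

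The forms of Hnrnpc combine 3 choices. In the 5′ UTR, an exon of 26 bases (chr14:52098015-52098040) was held by 57 of 77 reads and 41 of 67, 74.0% and 61.2%. A donor site adds 39 coding bases (chr14:52081789-52081827, 13 codons), the difference between the C1 and C2 proteins. The added bases of C2 begin with the 30 bases of chr14:52081798-52081827, minus strand.
Hnrnpc C2 segment: gtcagtaccagaacacccttctccgtcccc
They were present in 25 of 78 reads in replicate 1 and 26 of 76 in replicate 2, 32.1% (22.7 to 43.0%) and 34.2% (24.5 to 45.4%). The C1 form was thus in more reads, 53 and 50. Reads that show both the 26-base exon and this donor numbered 77 in replicate 1 and 68 in replicate 2. The exon and the added bases were together in 23.4% and 19.1% of them, beside 24.0% and 21.8% from the product of the separate shares.

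A later Hnrnpc exon begins at 3 places. The 30 bases of chr14:52075407-52075436 show them, with the first base of each form in capitals.
Hnrnpc exon start: ActtgtccttctcatccccagTagAgatga
The other starts each follow the letters AG, 21 and 24 bases past the first. The first start was used by 37 of 78 reads in replicate 1 and 30 of 79 in replicate 2, the start 21 bases on by 32 and 34, and the start 24 bases on by 9 and 15. The mean shares were 42.7 ± 6.69%, 42.0 ± 1.42% and 15.3 ± 5.27% (SD, n = 2). The first 2 did not differ beyond their spread. Both steps are whole numbers of codons.

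Hnrnpl and Hnrnpdl hold exons found only in annotated unproductive transcripts. The Hnrnpl exon of 70 bases (chr7:28817335-28817404), which shifts the frame, was held by 6 of 115 reads in replicate 1 and 7 of 140 in replicate 2, 5.22% and 5%. The Hnrnpdl exon of 105 bases (chr5:100035635-100035739) lies past the stop codon and was held by 8 of 82 and 5 of 72 reads, 9.76% and 6.94%. At the upper edge of the range, the Hnrnpdl coding exon of 171 bases was held by 97.2% and 96.1%, just outside it.

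In Hnrnpk an in-frame exon of 72 bases (chr13:58396188-58396259, 24 codons) was included in 467 of 511 reads in replicate 1 and 511 of 554 in replicate 2, 91.4% and 92.2%. It was combined with the 60-base segment of the last exon in 40.9% and 36.6% of reads, beside 41.0% and 36.2% from the product of the separate shares. A Hnrnpk exon of 44 bases stood just outside the range at 97.5% in both replicates. In Hnrnph1 the exon of 50 bases (chr11:50385141-50385190), which ends with the stop codon of Hnrnph1-201, was held by 44 of 52 and 41 of 43 reads, 84.6% and 95.3%.

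Retained introns were counted as a description added after seeing the data, in reads with at least 20 bases of exon on both sides. Annotated introns retained in 5 to 50% of reads numbered 12 of 113 tested, in 7 of the genes. Over all genes it was 1915 of 48488 introns, 3.95%, and 1068 of 5417 genes had at least 1. Hnrnpl had an intron of 111 bases (chr7:28818533-28818643) that leaves an open reading frame in Hnrnpl-209. It was retained in 28 of 115 reads in replicate 1 and 23 of 145 in replicate 2, 24.3% and 15.9%. Hnrnpl-201, which splices it, held 68.2% and 78.6% of Known, NIC and NNC reads, and Hnrnpl-209 held 23.6% and 12.9%. Hnrnpu had an intron of 1855 bases (chr1:178334027-178335881) retained in 8.12% and 5.54% of reads. The NIC chain that retains it, with 27 and 23 reads, was the only Hnrnpu form beside Hnrnpu-201 over 5% in both replicates. Hnrnpu-201 held 89.2% and 91.4%.

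Hnrnph1 had 4 of the 12 retained introns. The one of 939 bases (chr11:50381598-50382536) was retained in 8 of 42 reads in replicate 1 and 13 of 31 in replicate 2, 19% and 41.9%. The leading Hnrnph1 chain was NNC in both replicates, with 5 and 7 reads, and differs from Hnrnph1-201, with 8 and 3 reads, in the donor of 1 intron alone. With 31 and 22 Known, NIC and NNC reads, Hnrnph1 had too few for the isoform test, and with 10 and 5 Known reads too few for the unproductive share.

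Isoform usage did not differ between replicates past the threshold in any of the 9 genes with enough reads (chi-square test, adjusted over 2631 genes). The share called over all genes was 0.608%. An unadjusted p under 0.05 was found for 1 of the 9 genes and for 152 of the 2631. When ISM models were kept as isoforms, Hnrnpa2b1 was called, 1 of 9 genes, with an adjusted p of 0.00103. That setting called 150 of 2986 genes, 5.02%, and the other settings gave Hnrnpa2b1 0.870 or more. The ISM models include the 21 last-exon reads of replicate 1 and leave out the 39 Genomic reads of replicate 2. They also include the models with only the last 2 exons, 72 and 129 reads in replicates 1 and 2. The part of either in the call was not tested.

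Known transcripts annotated as nonsense-mediated decay or retained intron are called unproductive here. Reads of such forms in ISM, NIC, NNC or Genomic models are left out of the share. Of 8 genes with at least 20 Known reads in each replicate, Hnrnpdl alone had 5% or more, with 7 of 94 in replicate 1 (7.45%, 3.65 to 14.6%) and 5 of 83 in replicate 2 (6.02%, 2.6 to 13.3%). Of all 4471 genes, 8.54% reached 5%, so 1 of 8 is near that background. Most Hnrnpdl reads of this kind, 7 and 4, were Hnrnpdl-201, which holds the 105-base exon. Hnrnpa1 had 2 of 106 and 4 of 113, all Hnrnpa1-203, and Hnrnpa2b1 4 of 166 and 4 of 204. Hnrnpl had 0 of 101 and 2 of 132, although its 70-base exon was held by 6 of 115 and 7 of 140 reads of all classes. Hnrnpab, Hnrnpc, Hnrnpd and Hnrnpu had 0 in both replicates.

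No gene of the 8 differed between replicates in the unproductive share (Fisher's exact test, 0 at an unadjusted p under 0.05), and 0.0224% of all genes were called. Among 11 of the other hnRNP genes with enough reads, the highest shares were those of Cirbp at 5.45% and 5.61%, Hnrnpll at 7.46% and 1.75%, and Syncrip at 0 and 5%. The Syncrip value rests on 0 of 35 and 1 of 20 reads.

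In 5 of the genes most reads carried an intron in the 3′ UTR, past the stop codon of the leading coding transcript. The shares were 99.2% and 100% in replicates 1 and 2 for Hnrnpa1, 93.6% and 95.8% for Hnrnpa2b1, and 93.0% and 96.3% for Hnrnpd. For Hnrnph1 they were 84.9% and 95.6%, and for Hnrnpdl 73.2% and 73.1%. A read counts here if its model spans the position of the stop codon, even where that position is spliced out. In Hnrnph1, 8 and 2 reads skipped the 50-base exon that ends with the stop codon. Its share therefore nearly repeats the inclusion of that exon, 84.6% and 95.3%. Hnrnpab, Hnrnpc and Hnrnpl had none, from 67 to 164 reads spanning the stop codon position, and Hnrnpu had 5 of 366 and 2 of 444. The genes thus fell into a group above 70% and a group below 2% in both replicates. Of 5550 genes tested, 4.70% had a spliced 3′ UTR in at least 50% of reads.

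**Figure D5:**
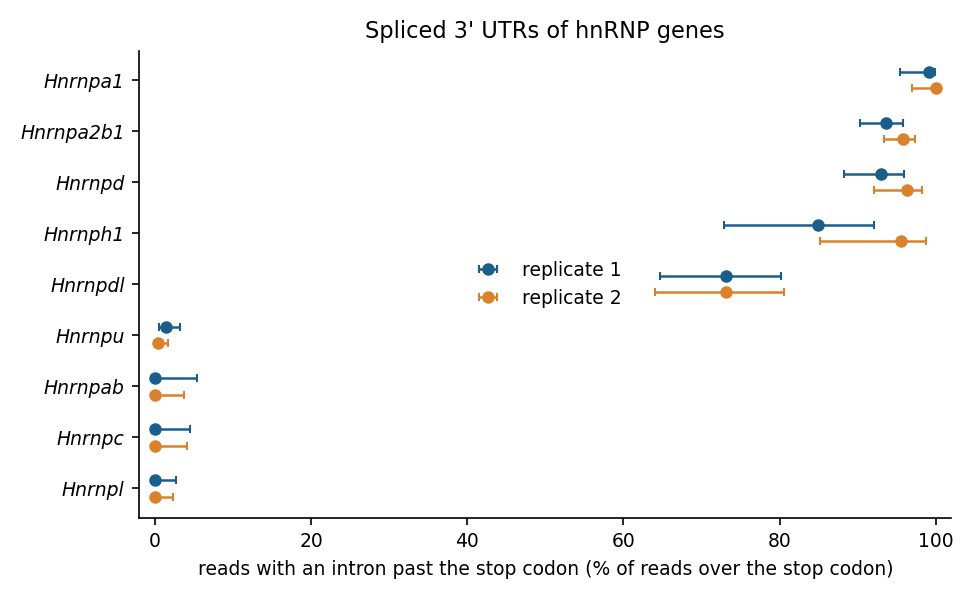
Share of reads with an intron past the stop codon, for 9 hnRNP genes, with 1 point per replicate and 95% Wilson intervals. It is in percent of reads whose model spans the position of the stop codon. Hnrnpa1, Hnrnpa2b1, Hnrnpd, Hnrnph1 and Hnrnpdl lie above 70%, and the other 4 genes below 2%.

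These introns lie close to the stop codon in the leading transcripts. The exon sequence between the stop codon and the intron is 14 bases in Hnrnpa1, 21 in Hnrnpa2b1, 30 in Hnrnpd, 21 in Hnrnpdl and 0 in Hnrnph1. The introns measure 227, 156, 1181, 1119 and 586 bases in the same order. When only introns more than 50 bases past the stop codon were counted, 0 of the 9 genes kept a share of 50%, and 46 genes of the series did. Hnrnpa2b1 then had the highest share of the 9, 11.1% in replicate 1 and 11.8% in replicate 2. Hnrnpdl had 6.5% and 5.56%, Hnrnpa1 4.96% and 3.2%, and Hnrnpd 3.49% and 1.86%.

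The reads without the intron took different forms. In Hnrnpdl the 1119-base intron (chr5:100034985-100036103) was retained in 30.8% and 30.2% of reads, and the annotated transcript of that form, Hnrnpdl-207, held 20.0% and 17.4% of Known, NIC and NNC reads against 67.0% and 67.4% for the spliced Hnrnpdl-202. In Hnrnpa2b1 the 156-base intron was retained in 46 of 299 and 44 of 397 reads, 15.4% and 11.1%, but 26 of these reads in each replicate held another intron past the stop codon. In Hnrnpd the 1181-base intron was retained in 7.06% and 3.77%.

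Splicing of the 3′ UTR did not differ between replicates for any of the 9 genes (Fisher's exact test, 0 at an unadjusted p under 0.05), nor for any gene of the series (0% called, 23 of 5550 at an unadjusted p under 0.05). Hnrnpk could not be tested, having no Known coding reads. With the small exon restored it had 0 of 524 and 0 of 564 reads with such an intron. Among 15 of the other hnRNP genes with enough reads, 2 had a share of 50% or more, named after their values were seen: Hnrnpa3 with 98.3% and 100%, and Rbmx with 69.8% and 70.0%. The leading coding transcript of Rbmx, Rbmx-202, has no intron past its own stop codon. The Rbmx reads counted thus come from other forms, whose own stop codons may differ.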

How the data were processed

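The authors deposited, per library, a raw read count for every transcript model (no normalization) and the models' exon structure. Models were built in each library alone on mm10 with GENCODE M21, per the deposited text beside the tables, and their source column names TALON. Aligner, versions and filters: not given in the sources used here. Chains of introns were matched between libraries by position. Reads were summed by gene and scaled to CPM. Fisher's exact and chi-square tests with Benjamini-Hochberg adjustment ran over all genes or exons (Python 3.11.15, scipy 1.17.1), with at least 10 reads over both libraries for gene level, 50 reads in each for isoforms and 20 in each for exons and shares. TMM (edgeR 4.0.16) and DESeq2 1.42.0 size factors were alternatives. The tests were checked on simulated counts with counting error alone, so the check does not cover further spread between libraries. Intervals are 95% and cover counting error only. Zero counts carry a limit of 3 counts. Log2 ratios add 0.5 reads to each count. Named isoforms were the leading one and each with at least 5% of Known, NIC and NNC reads in both libraries. Retained introns, alternative splice sites, pairs of events and restored small exons were added after seeing the data. The genes, lists and thresholds were chosen with earlier results of these data known. Over the genes tested, the chi-square statistic between libraries was 23659 on 11202 degrees of freedom. Both processed pseudogenes with an Hnrnp name had 0 reads.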

Additional observations from a re-analysis of the deposited data

How the results depend on the processing

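No paired analysis was possible because there is 1 group. Among those of the 10 genes that each alternative could test, 0 were called for gene level, exon inclusion, unproductive share or 3′ UTR splicing, and in isoform usage 1 was, Hnrnpa2b1, with incomplete splice matches kept. Hnrnpk had no value at gene level with Known models only. Over all genes, isoform usage called 16 in the main setting, 2 with Known isoforms only, 150 with incomplete splice matches kept, 6 with a test of the leading isoform and 7 with at least 100 reads. The unproductive share called 0 genes with nonsense-mediated decay only and 2 with at least 50 reads. Of the 9 genes tested, 5 had a spliced 3′ UTR in at least 50% of reads in the main setting, and over all genes 261. With the own stop codon of each Known coding model these counts were 4 and 184, and with at least 50 reads 4 and 150. Hnrnph1 had too few reads to be tested in either setting. It had 10 and 5 Known reads in replicates 1 and 2, and 53 and 45 reads spanning the stop codon position. The counts over all genes are likewise of the genes that each setting could test. When the intron had to lie over 50 bases past the stop codon, they were 0 and 46. Of 163 values of single genes under an alternative, 144 moved by less than the spread between replicates or kept their side of the test, and 19 moved. Values with 1 replicate left out always count among the 144, because dropping 1 of 2 values moves a mean by less than their SD. The read filters for exons left every inclusion value they kept unchanged. The 144 thus overstate how far the values were tested. With all reads of the gene as denominator, the leading share of Hnrnpa2b1 was 38.9% and that of Hnrnph1 11.7%. With models of at least 2 reads, Hnrnph1 averaged 42.7 CPM, and its leading isoform held 37.2%. The cause of these shifts was not tested, beyond the larger denominator and the models left out. Depth limits Hnrnph1, with 57 and 48 reads, most.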
